A study of Mus musculus with 14 samples.

Results

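Taf7l, Nxf2, Tex11, Tex13, Tex16, Usp26, Tktl1 and Pramel3 are testis genes that were first found as transcripts specific to spermatogonia, the premeiotic cells from which sperm arise. All 8 listed symbols were found among the 24340 gene symbols of the deposited tables, and all 8 passed the filter on low values, at least 1 RPKM (reads scaled to transcript length and library size) in at least 2 of 14 libraries, which kept 14772 genes. The libraries hold RNA of male germ cells from testes of C57BL/6 mice, in 7 groups of 2. At postnatal day 7 (P7) the groups were the double knockout (P7 DKO, Vasa-Cre; Jmjd1a-/-; Jmjd1b-/-) and its control (P7 Ctrl, Vasa-Cre; Jmjd1a-/+; Jmjd1b-/+). At day 3 (P3) they were the double knockout (P3 DKO), the loss of Jmjd1a with 1 intact Jmjd1b allele (P3 Jmjd1aKO), the loss of Jmjd1b with 1 intact Jmjd1a allele (P3 Jmjd1bKO), the control with 1 intact allele of each gene (P3 Ctrl) and wild type without Cre (P3 WT). Every group but P3 WT carries Vasa-Cre, a recombinase driven in germ cells, and the controls lack 1 allele of each gene. Jmjd1a and Jmjd1b, listed as Kdm3a and Kdm3b, encode demethylases of histone H3 lysine 9. No label ties a replicate to an animal and none names a sort of the cells. The p-values below thus measure only how these libraries vary, which may be technical variation.

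The X chromosome of the male germ line is present in a single copy, is transcribed in spermatogonia and is silenced as a whole during meiotic prophase. It is rich in genes used before that point, and the 8 genes described here all lie on it. Taf7l is a germ cell relative of Taf7, a subunit of the general transcription factor TFIID. Nxf2 belongs to the family of Nxf1, the general mRNA export receptor. Tex11 is a meiotic protein needed for normal chromosome pairing and crossing over. Usp26 is a ubiquitin-specific protease, Tktl1 a relative of the pentose phosphate enzyme transketolase (Tkt), and Pramel3 a member of the PRAME family of leucine-rich repeat proteins. Tex13 and Tex16 were named only for their expression in testis.

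In GENCODE M21 on GRCm38, the build of the deposited values (mm10), Taf7l lies at chrX:134460118-134476490, Nxf2 at chrX:134944526-134964754 and Pramel3 at chrX:135302307-135312652. Tex13, which RefSeq lists as a synonym of Tex13b, lies at chrX:140808307-140813433 and Tex16 at chrX:112011007-112127326. Tex11 lies at chrX:100838648-101059667, Tktl1 at chrX:74177259-74208500 and Usp26 at chrX:51753959-51801233. All are annotated as protein coding. Taf7l, Nxf2, Tex13, Tex11 and Usp26 are on the minus strand, and Tex16, Tktl1 and Pramel3 on the plus strand. The values of 2 members are uncertain. The longest Pramel3 transcript is 98.5 to 98.9% identical over about its whole length to 4 other X-linked genes, of which Gm5128 was detected in every library, and exons of Tex16 overlap those of Gm45194 on the same strand. The library kit keeps strand, and whether the counting used it is not stated in the sources used here.

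RefSeq promoter windows (GRCm38.p6, from 250 bases before to 50 after the annotated start) were at hand for 7 of the 8 members, and 6 of these began at the GENCODE start within 9 bases. They were searched on both strands for an E-box (CACGTG, which reads the same on either strand), an E2F motif (TCCCGC) and a CCAAT box (CCAAT), motifs picked with the windows and earlier results in view. The windows of Taf7l, Nxf2 and Tex13, genes that differ between P7 DKO and P7 Ctrl, and of Usp26, which does not pass that test, are shown to 30 bases past the start, 5′ to 3′ on the gene's strand, with each CACGTG in capitals.
Taf7l, chrX:134476461-134476740, minus strand: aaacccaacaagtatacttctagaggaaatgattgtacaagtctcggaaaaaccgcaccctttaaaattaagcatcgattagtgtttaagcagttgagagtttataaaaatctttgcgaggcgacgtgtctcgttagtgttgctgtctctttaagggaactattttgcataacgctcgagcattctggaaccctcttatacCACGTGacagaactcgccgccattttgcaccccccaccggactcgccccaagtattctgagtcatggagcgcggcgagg
Nxf2, chrX:134964725-134965004, minus strand: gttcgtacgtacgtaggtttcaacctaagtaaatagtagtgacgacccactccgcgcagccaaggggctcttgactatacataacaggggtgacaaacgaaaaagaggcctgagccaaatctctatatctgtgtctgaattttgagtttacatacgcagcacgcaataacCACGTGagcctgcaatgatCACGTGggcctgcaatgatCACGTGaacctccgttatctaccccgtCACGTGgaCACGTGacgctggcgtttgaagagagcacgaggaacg
Tex13, chrX:140813404-140813683, minus strand: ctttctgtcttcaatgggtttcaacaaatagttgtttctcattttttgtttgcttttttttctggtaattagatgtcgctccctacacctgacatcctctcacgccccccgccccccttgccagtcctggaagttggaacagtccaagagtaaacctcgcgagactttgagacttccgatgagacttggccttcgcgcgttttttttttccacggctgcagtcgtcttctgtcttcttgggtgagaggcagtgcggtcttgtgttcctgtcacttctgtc
Usp26, chrX:51801204-51801483, minus strand: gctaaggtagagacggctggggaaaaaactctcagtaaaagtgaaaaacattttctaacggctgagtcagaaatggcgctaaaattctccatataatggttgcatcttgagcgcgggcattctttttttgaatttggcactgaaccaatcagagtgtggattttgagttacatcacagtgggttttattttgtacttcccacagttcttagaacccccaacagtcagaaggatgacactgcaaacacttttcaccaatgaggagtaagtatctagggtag

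The Nxf2 window at the GENCODE start held 5 copies of CACGTG and the Taf7l window 1. The Nxf2 copies begin at -80, -61, -42, -15 and -7, counted with the first transcribed base as 0, and the Taf7l copy at -49. None of the other members' windows at the gene start held it. Of 32851 RefSeq windows of the same length, 7.15% held at least 1 copy and 0.0152% (5 windows) held at least 5. The cut of 5 equals the count of Nxf2 itself, so that share is only a description. The Nxf2 copies at -80, -61 and -42 lie in a repeated stretch of sequence, so they are not independent of one another. On the X chromosome 8.59% of 1223 windows held at least 1. The CCAAT box was found in Usp26, with 2 copies beginning at -106 and 3, and in Pramel3, with 1 copy beginning at -37, against 37.4% of all windows with at least 1 copy. The E2F motif was in none of the 6 windows at the gene start and in 6562 of all 32851 windows. RefSeq lists a further Nxf2 start 857 bases downstream. Its window held 0 copies of CACGTG and 1 E2F motif, beginning at -90. Which Nxf2 start these cells use was not tested. The motifs found did not overlap one another. A match is a run of letters, not a measured binding site. Across all tested genes with at least 1 CACGTG in a window, 20.5% of 1288 were higher and 17.9% lower in P7 DKO than in P7 Ctrl, against 17.4% higher and 16.1% lower of all tested genes.

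**Figure D1:**
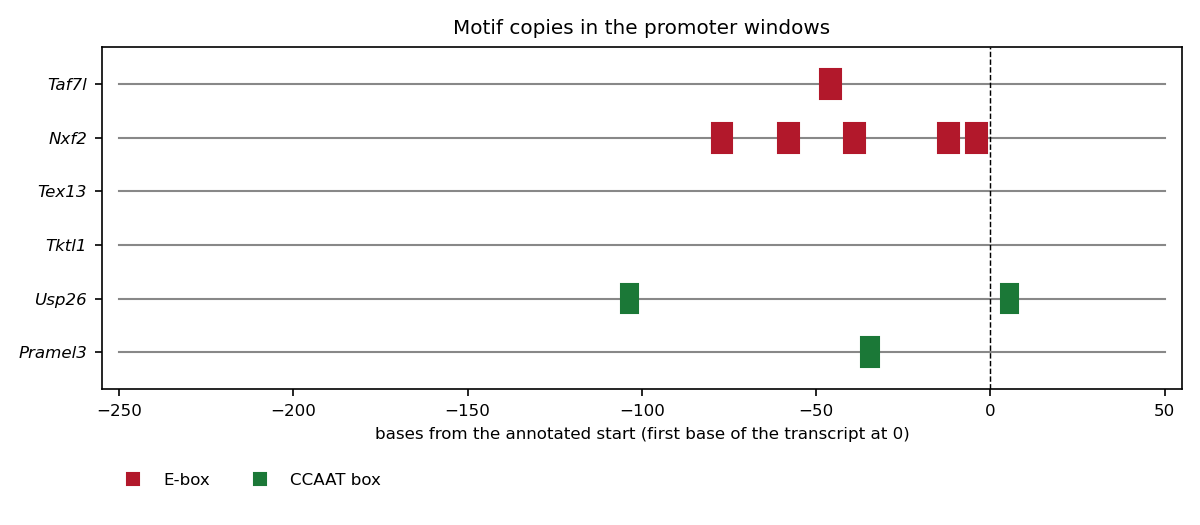
Copies of the motifs in the promoter windows of the 6 members whose window begins at the gene start. The horizontal axis is distance in bases from the annotated start (dashed line), and boxes are motif copies. The Nxf2 window holds 5 E-boxes within the last 80 bases before the start, and the Taf7l window 1.

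Germ cell genes were high in every library, with 169.5 to 307 RPKM for Ddx4, 299 to 613 for Dazl, 287 to 412 for Mael and 155.5 to 271 for Tex101. The deposited files hold no counts, and the depth, estimated from how RPKM values step, was between 13.5 and 48.6 M (mega) fragments. At that depth Taf7l rests on about 5349 to 25284 fragments per library and Pramel3 on 120 to 458. Kdm3a averaged 8.28 RPKM in P7 DKO, against 27.1 in P7 Ctrl. It averaged 13.2 in P3 DKO and 9.83 in P3 Jmjd1aKO, against 27.3 in P3 Ctrl. Kdm3b averaged 6.61 RPKM in P7 DKO, against 16.7 in P7 Ctrl. It averaged 4.37 in P3 DKO and 6.12 in P3 Jmjd1bKO, against 11.9 in P3 Ctrl. All these drops passed the test except that of Kdm3b in P3 Jmjd1bKO (adjusted p = 0.965). The second replicates of P3 Jmjd1aKO and P3 Jmjd1bKO stood apart: 12 Sertoli cell markers summed to 839 and 1021 RPKM in them, against 94.3 and 94.9 in the first replicates and 83.4 to 109.8 in P3 Ctrl.

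The members differed widely in level. Taf7l was the highest, at 153 to 601 RPKM and between rank 144 and rank 447 of all symbols within a library, and exceeded Nxf2 in 14 of 14 libraries. Nxf2 ranged from 137 to 298.5 RPKM and exceeded Tex13, the next, in 14 of 14. Tex13 (35.0 to 139 RPKM), Tktl1 (41.4 to 72.0), Tex11 (37.4 to 80.9) and Usp26 (35.0 to 97.8) formed a middle tier whose order changed between libraries. Neighbours there were in the order given in 8, 10 and 7 of 14 libraries, so they cannot be ranked. Tex16 lay below them in every library at 5.52 to 15.0 RPKM, and Pramel3 was the lowest at 1.26 to 4.91 RPKM.

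**Figure D2:**
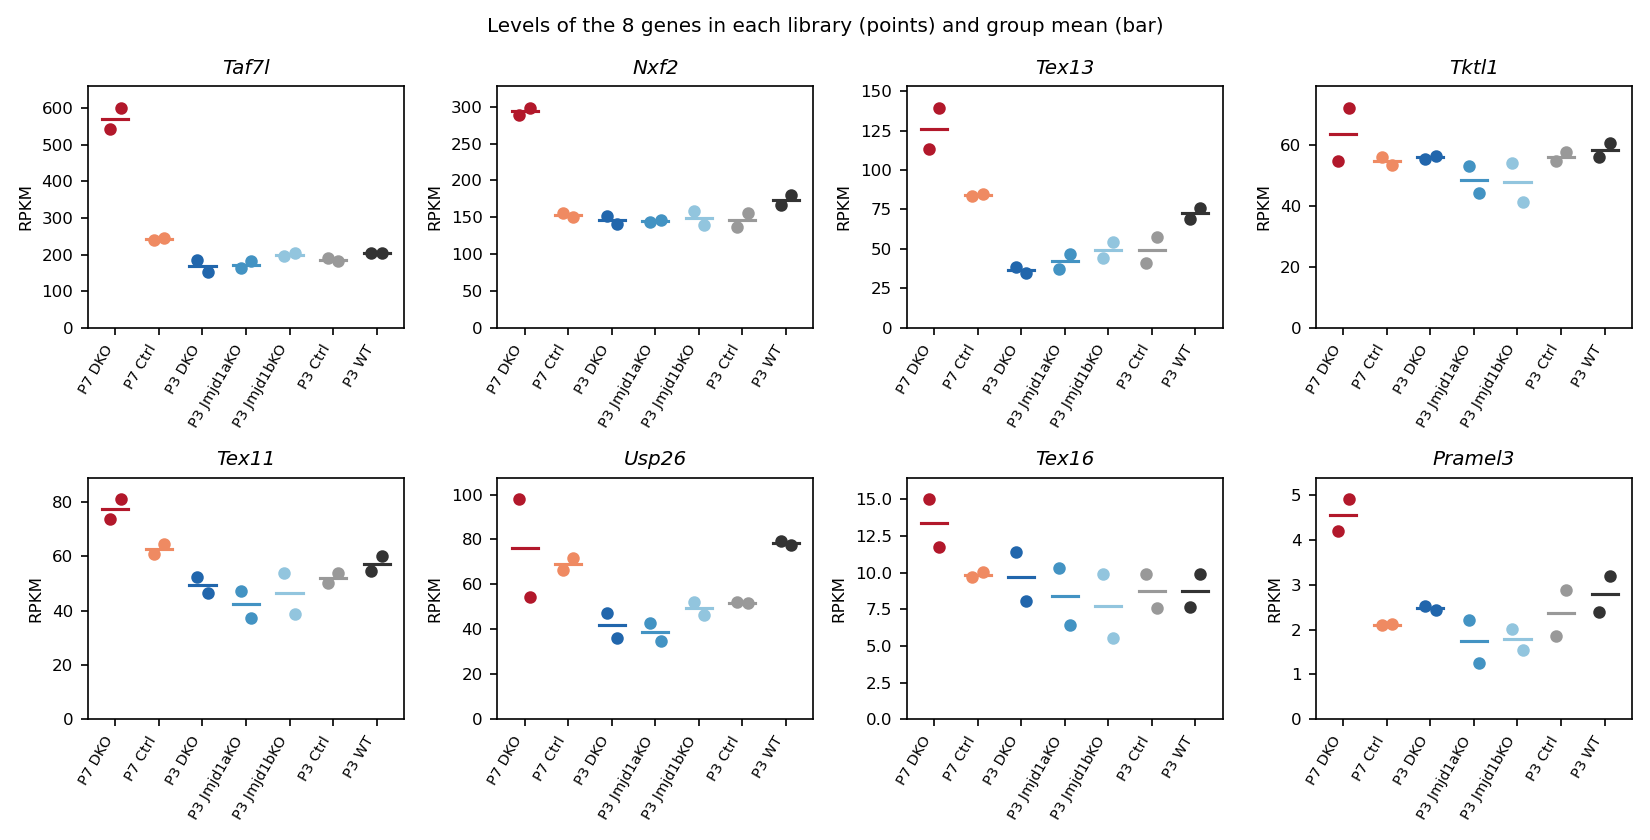
RPKM of the 8 genes (vertical axes, each from 0) in the 14 libraries of 7 groups (horizontal axes), with points for libraries and bars for group means. Taf7l, Nxf2, Tex13, Tex11, Tex16 and Pramel3 have their 2 highest libraries in P7 DKO, while Tktl1 stays between 41.4 and 72.0 RPKM.

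The P7 comparison asks what the combined loss of Jmjd1a and Jmjd1b does at day 7, and here Taf7l and Nxf2, the transcription and export genes, rose. Taf7l had 543 and 601 RPKM in the P7 DKO libraries, against 239 and 245 RPKM in P7 Ctrl. Nxf2 had 289.5 and 298.5 RPKM in P7 DKO, against 155.5 and 151 RPKM in P7 Ctrl. The groups of both genes were far apart and the replicates close. On the log2(RPKM + 1) scale, on which changes of low genes are understated, Taf7l rose by 1.24 ± 0.10 (SE, n = 2 each, adjusted p = 5.36e-05, limma with Benjamini-Hochberg adjustment over all tested genes) and Nxf2 by 0.94 ± 0.09 (adjusted p = 0.000124). With quantile normalization these changes were 0.84 and 0.65, and both passed. In bulk libraries such as these, a change in the share of a cell type and a change of RNA per cell cannot be told apart.

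Tex13 and Pramel3 also passed. Tex13 had 113 and 139 RPKM in P7 DKO, against 83.4 and 84.6 RPKM in P7 Ctrl, a log2 change of 0.58 ± 0.18 (adjusted p = 0.0305). This call was lost with quantile normalization (0.38, adjusted p = 0.112) and with no filter (adjusted p = 0.0703). Pramel3 had 4.20 and 4.91 RPKM in P7 DKO, against 2.11 and 2.12 RPKM in P7 Ctrl, a log2 change of 0.83 ± 0.21 (adjusted p = 0.0147). The ratio of its group means was 2.16, and with a pseudocount of 0.1 its log2 change was 1.07. Its near-copy Gm5128 had 19.99 and 21.8 RPKM in P7 DKO, against 14.9 and 15.1 RPKM in P7 Ctrl (log2 change 0.45 ± 0.12, adjusted p = 0.0198), and how fragments were divided between the copies is not known. Leaving out either P7 Ctrl library or the second P7 DKO library ended the calls of Tex13 (adjusted p = 0.111 to 0.183) and Pramel3 (0.0741 to 0.0834), which left Taf7l and Nxf2 called.

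The other 4 members did not pass. Tex11 had 73.7 and 80.9 RPKM in P7 DKO, against 60.9 and 64.6 RPKM in P7 Ctrl, so that the libraries did not overlap. Its log2 change was 0.30 ± 0.16 with a 95% interval of -0.06 to 0.65 (adjusted p = 0.179), and it passed (adjusted p = 0.04) when the libraries with high Sertoli markers were left out of the shared estimate of the spread. Tex16 had 15.0 and 11.8 RPKM in P7 DKO, against 9.68 and 10.04 RPKM in P7 Ctrl, with an interval of -0.25 to 1.04 (adjusted p = 0.331). The P7 DKO replicates of Usp26 and Tktl1 disagreed. Usp26 had 97.8 and 54.6 RPKM in P7 DKO, which lie on either side of the 66.2 and 71.9 RPKM of P7 Ctrl (log2 change 0.08, interval -0.43 to 0.60). Tktl1 had 54.7 and 72.0 RPKM in P7 DKO, against 55.9 and 53.5 RPKM in P7 Ctrl (log2 change 0.20, interval -0.15 to 0.54). These intervals leave room for changes in either direction.

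Thus 4 of 8 members were higher and none lower in P7 DKO. The background was large, with 33.5% of all tested genes called, 17.4% higher and 16.1% lower. The members' median log2 change was 0.49, beside 0.02 over all tested genes. The X chromosome as a whole leaned upward: of its 561 other tested genes, 33.0% were higher and 7.66% lower, with a median of 0.30. A rise larger than that of Taf7l was seen in 2.73% of all tested genes, larger than that of Nxf2 in 5.90%, larger than that of Pramel3 in 7.70% and larger than that of Tex13 in 15.0%. Among the 569 tested X-linked genes Taf7l ranked 70 and Nxf2 108 by the size of the rise. Libraries of the 2 groups did not overlap for 6 members, all higher in P7 DKO, where 38.1% of tested genes were separated that way.

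**Figure D3:**
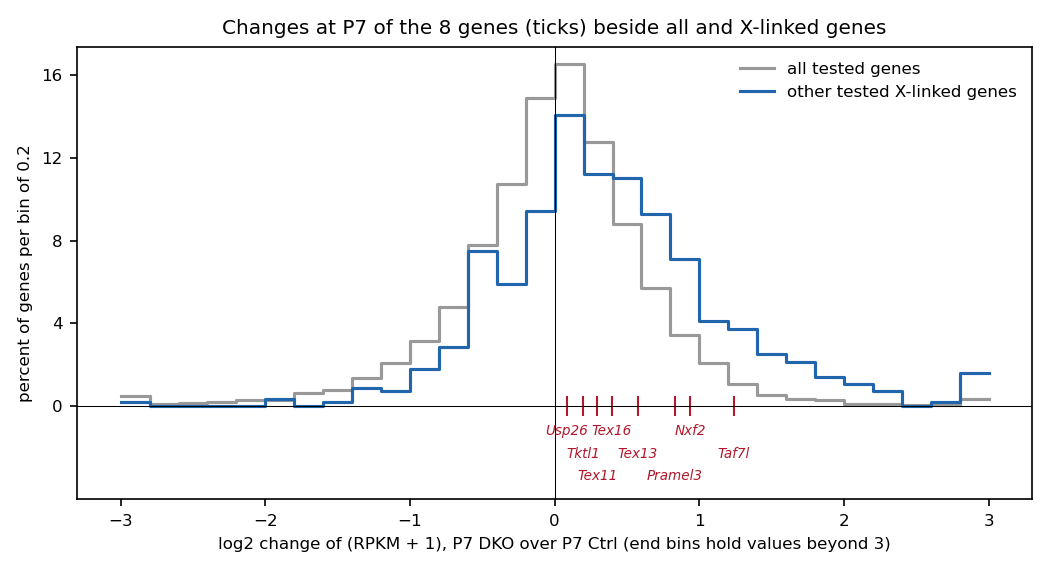
Percent of genes in each bin of log2 change of (RPKM + 1) between P7 DKO and P7 Ctrl, for all 14772 tested genes and for the 561 other tested X-linked genes, with ticks for the 8 members. The X-linked curve is shifted to the right of the curve of all genes, and the members lie between 0.08 (Usp26) and 1.24 (Taf7l).

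Markers of germ cell stages differed between the P7 groups beside these genes. Of 25 tested genes of undifferentiated spermatogonia, 20 were lower and 2 higher in P7 DKO, with a median log2 change of -1.94. Foxc2, a transcription factor of the stem cell pool, had 3.64 and 1.97 RPKM in P7 DKO, against 74.2 and 77.3 RPKM in P7 Ctrl. Of 13 tested genes of differentiating spermatogonia, 7 were higher and 2 lower, with a median of 0.71. Dmrtb1, a transcription factor that controls when spermatogonia enter meiosis, rose by 3.96 ± 0.17, Sohlh2 by 2.15 ± 0.09 and Stra8, which responds to retinoic acid at meiotic entry, by 1.88 ± 0.28. The summed level of 8 stromal markers was 6.19 to 6.84 RPKM in P7 DKO, against 19.06 to 19.09 in P7 Ctrl, and that of 5 endothelial markers was 1.45 to 2.31 RPKM in P7 DKO, against 9.22 to 9.31 in P7 Ctrl. The sum of 12 Sertoli markers was 117.5 to 225 RPKM in P7 DKO, against 170 to 188 in P7 Ctrl, with none of the Sertoli or endothelial markers at 0. Of the tested markers 2 of 7 stromal, 2 of 4 endothelial and 1 of 12 Sertoli ones were lower in P7 DKO, and none was higher. The part of these differences in the members' values was not tested.

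The widely expressed relatives of 3 members were measured in the same libraries. Taf7 averaged 93.3 RPKM in P7 DKO, against 94.7 in P7 Ctrl (log2 change -0.02 ± 0.10), and Nxf1 averaged 84.7 RPKM in P7 DKO, against 85.6 in P7 Ctrl (-0.02 ± 0.21). Neither passed the test, and the ratio of the germ cell gene to its relative was therefore higher in P7 DKO. The Taf7l to Taf7 ratio was 5.78 and 6.48 in P7 DKO, against 2.46 and 2.66 in P7 Ctrl, and the Nxf2 to Nxf1 ratio was 3.398 and 3.547 in P7 DKO, against 1.83 and 1.75 in P7 Ctrl. Both values compare RPKM, which are per length. Tktl1 behaved differently with age. Tkt averaged 19.3 RPKM in P7 Ctrl, against 61.5 in P3 Ctrl (log2 change -1.61 ± 0.18, adjusted p = 0.00157), so the Tktl1 to Tkt ratio was 2.88 and 2.77 in P7 Ctrl, against 0.82 and 1.02 in P3 Ctrl, while Tktl1 itself did not pass. In P3 Ctrl Tkt was also higher than in P3 WT, which averaged 29.1 RPKM (log2 change 1.05 ± 0.18, adjusted p = 0.0438).

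**Figure D4:**
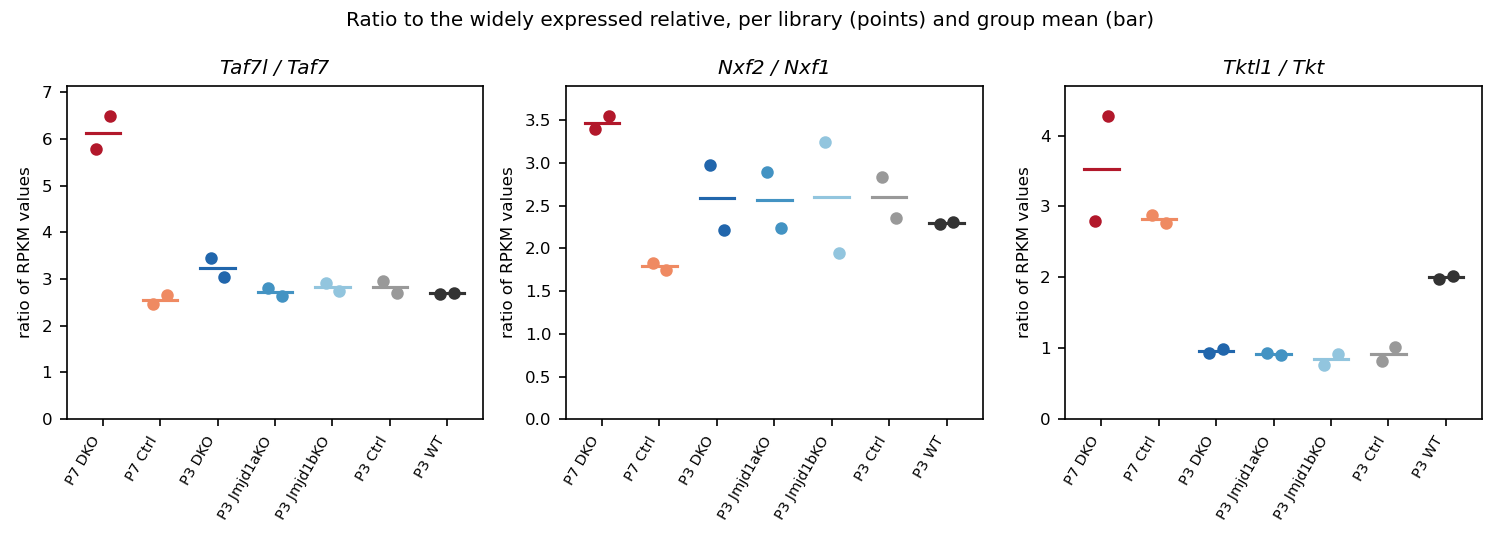
Ratio of RPKM values of Taf7l to Taf7, Nxf2 to Nxf1 and Tktl1 to Tkt (vertical axes, from 0) in each library (points) and group mean (bars). The first and second ratios are highest in P7 DKO, at 5.78 and 6.48 for Taf7l and 3.398 and 3.547 for Nxf2, and the third is higher in both P7 groups than in the P3 groups.

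Among 15 tested relatives and partners of the members, 4 were higher and 1 lower in P7 DKO, with a median log2 change of 0.10. Of all tested genes 17.4% were higher and 16.1% lower, so these few calls do not set the list apart. Nxt2, of the family of small cofactors that pair with NXF proteins, had 10.2 and 13.7 RPKM in P7 DKO, against 1.98 and 2.79 RPKM in P7 Ctrl (log2 change 1.93 ± 0.20, adjusted p = 0.000155). Nxf3, a further family member, had 10.06 and 11.9 RPKM in P7 DKO, against 3.53 and 3.90 RPKM in P7 Ctrl (1.34 ± 0.21, adjusted p = 0.00128). Pramel1 fell by 0.82 ± 0.25 (adjusted p = 0.0298). Of 17 tested genes that act with Tex11 in synapsis and recombination, 10 were higher and none lower, with a median of 0.82. They included Hormad1 (1.52 ± 0.33), an axis protein, Hfm1 (1.44 ± 0.24), a helicase of crossover formation, and Sycp1 (1.34 ± 0.20), the transverse filament of the synaptonemal complex. Tex11 itself did not pass in that comparison.

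A list of other X-linked genes, drawn up for germ cells, is the nearest comparison. It also held Rps4x, a ribosomal protein gene, Usp9x and Zfx, which are not confined to germ cells. Of these, Zfx was higher in P7 DKO (0.68 ± 0.15), and Rps4x and Usp9x did not pass. The list held 19 tested genes, 10 higher and 1 lower in P7 DKO, with a median log2 change of 0.71. Among the X-linked genes other than the members 33.0% were higher and 7.66% lower. Its largest rises were those of Magea5 (2.26 ± 0.15), a MAGE family gene, Fmr1nb (2.17 ± 0.12) and the homeobox gene Rhox13 (2.15 ± 0.11). Rbmxl2, which the list also held, is annotated on chromosome 7, and was among the 10 (0.81 ± 0.13). Autosomal testis genes leaned the other way: of 16 tested, 1 was higher and 6 lower, with a median of -0.12. Dazl, a translational regulator of germ cells, rose by 0.62 ± 0.12 (adjusted p = 0.00449), and the piRNA pathway genes Tdrd1 and Piwil2 fell by 0.76 ± 0.13 and 0.50 ± 0.15. The difference between these lists and the members was not tested.

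At P3 the same double loss gave no call among the members. In P3 DKO against P3 Ctrl, 4.47% of all tested genes passed, 2.18% higher and 2.29% lower. None of the 8 members passed in limma, and 1 had an unadjusted p under 0.05, as did 3623 of all tested genes. Taf7l had 185 and 153 RPKM in P3 DKO, against 191 and 182 RPKM in P3 Ctrl, and Nxf2 had 151 and 141 RPKM in P3 DKO, against 137 and 155 RPKM in P3 Ctrl. The libraries of the 2 groups overlapped for both genes. Tex13 had 38.6 and 35.0 RPKM in P3 DKO, against 41.2 and 57.4 RPKM in P3 Ctrl (log2 change -0.40 ± 0.18, adjusted p = 0.201), and Usp26 had 47.4 and 36.1 RPKM in P3 DKO, against 52.0 and 51.7 RPKM in P3 Ctrl (-0.32 ± 0.23, adjusted p = 0.434). For these 2 members the groups did not overlap, as for 27.9% of all tested genes in that direction. The members' median was -0.04, beside 0.01 over all tested genes. The X chromosome leaned upward at P3 too: of its 561 other tested genes, 3.74% were higher and 0.535% lower, with a median of 0.22. Among the 569 tested X-linked genes the members ranked from 338 (Tex16) to 547 (Tex13) by log2 change. Of the related lists, the relatives and partners had 1 gene lower, Pramef12 (-0.65 ± 0.09), the X-linked list had 1 lower, the autosomal Rbmxl2 (-0.60 ± 0.13), and the recombination genes and the autosomal testis genes had none called. Undifferentiated spermatogonia genes had 2 higher and 2 lower, and differentiating ones 1 higher and 3 lower.

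The difference between the ages was itself tested. The double-knockout change at P7 exceeded that at P3 for Taf7l by 1.38 ± 0.15 (adjusted p = 0.000707), for Nxf2 by 0.94 ± 0.13 (adjusted p = 0.00179) and for Tex13 by 0.97 ± 0.25 (adjusted p = 0.0211), where 22.9% of all tested genes differed, 12.2% with a higher and 10.7% with a lower change at P7. Among the X-linked genes other than the members 15.5% had a higher and 6.24% a lower change at P7. Pramel3 had a difference of 0.77 ± 0.30 and missed the threshold (adjusted p = 0.0962). For Tex13 the P3 change was negative and the P7 change positive, and its call was lost without any of 5 of the 8 libraries used (adjusted p = 0.0653 to 0.0765) and with quantile normalization (0.63, adjusted p = 0.0961). Quantile normalization also reduced the difference of Taf7l to 0.74 (adjusted p = 0.0073) and that of Nxf2 to 0.42 (adjusted p = 0.0496), both still called.

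Of the control groups of the 2 ages, P7 Ctrl had higher Tex13 and Taf7l than P3 Ctrl. In P7 Ctrl against P3 Ctrl 23.3% of all tested genes passed, 9.94% higher and 13.4% lower (1468 and 1973 genes, or 1587 and 1424 with quantile normalization). Among the X-linked genes other than the members 14.4% were higher and 7.66% lower. Tex13 had 83.4 and 84.6 RPKM in P7 Ctrl, against 41.2 and 57.4 RPKM in P3 Ctrl (log2 change 0.78 ± 0.18, adjusted p = 0.0147). Taf7l had 239 and 245 RPKM in P7 Ctrl, against 191 and 182 RPKM in P3 Ctrl (0.38 ± 0.10, adjusted p = 0.0301). Both calls were lost without P3 Ctrl replicate 1 or either P7 Ctrl library, and that of Taf7l also without P3 Ctrl replicate 2 (adjusted p = 0.0852 to 0.15 over the lost calls). Tex11 and Usp26 had higher levels in both P7 Ctrl libraries than in either P3 Ctrl library and did not pass (adjusted p = 0.229 and 0.219), a separation that 35.6% of all tested genes showed. Nxf2, Tex16, Tktl1 and Pramel3 overlapped between the ages. P3 WT, also at day 3, lay between the 2 control groups for Tex13 (69.0 and 75.9 RPKM) and Taf7l (205 and 204 RPKM). Tex11 did the same (54.6 and 59.9 RPKM). For Usp26 and Nxf2, P3 WT lay above both control groups. Usp26 had 79.3 and 77.4 RPKM in P3 WT, against 66.2 and 71.9 RPKM in P7 Ctrl. Nxf2 had 166 and 180 RPKM in P3 WT, against 155.5 and 151 RPKM in P7 Ctrl. The estimated depth was 21.4 and 24.7 M fragments in P7 Ctrl, against 38.8 and 43.1 M in P3 Ctrl. The part of depth in these differences was not tested.

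In the double knockout the same interval of age held 6 calls, all higher in P7 DKO than in P3 DKO. Of all tested genes 58.3% passed, 27.8% higher and 30.5% lower. Among the X-linked genes other than the members 39.6% were higher and 16.2% lower. Taf7l rose by 1.76 ± 0.10, Tex13 by 1.75 ± 0.18, Nxf2 by 1.01 ± 0.09, Usp26 by 0.81 ± 0.23 (adjusted p = 0.0132), Pramel3 by 0.67 ± 0.21 (adjusted p = 0.0221) and Tex11 by 0.63 ± 0.16 (adjusted p = 0.0065). Tex16 (0.43 ± 0.29) and Tktl1 (0.16 ± 0.15) did not pass. With quantile normalization the calls of Tex11 (0.33, adjusted p = 0.101) and Usp26 (0.52, adjusted p = 0.0682) were lost, the changes of Taf7l and Nxf2 were 1.11 and 0.50, and that of Pramel3 was 1.15, all called. That of Pramel3 was lost without either P3 DKO library or P7 DKO replicate 2 (adjusted p = 0.0727 to 0.107), and that of Usp26 without P3 DKO replicate 2 or P7 DKO replicate 1 (adjusted p = 0.0837 to 0.0996). The change of Usp26 was 0.39 without P7 DKO replicate 1 and 1.22 without P7 DKO replicate 2. The 2 age comparisons and the P7 and P3 comparisons share libraries, so they are not separate evidence.

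**Figure D5:**
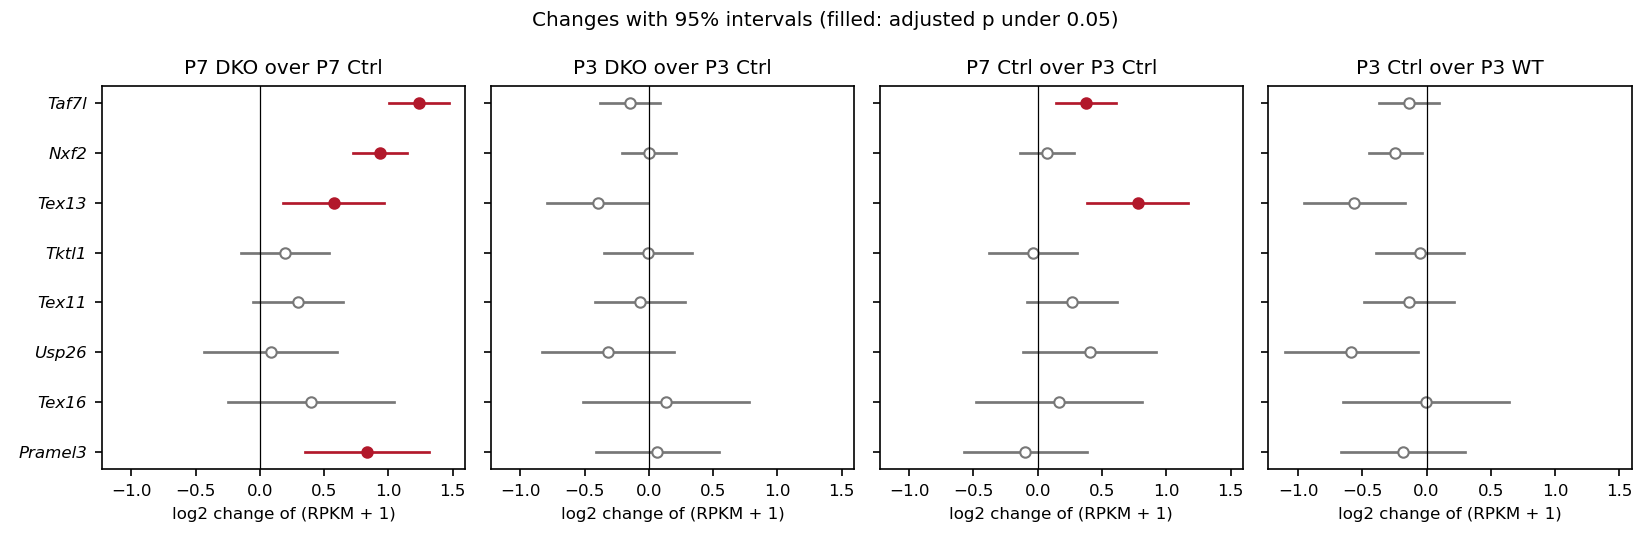
Log2 changes of (RPKM + 1) with 95% intervals (horizontal axes) of the 8 genes in 4 comparisons of 2 libraries against 2, with filled red points where the adjusted p is under 0.05. In P7 DKO over P7 Ctrl 4 genes are filled, in P7 Ctrl over P3 Ctrl 2, and in the other panels none.

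Loss of either demethylase alone gave no call among the members. In P3 Jmjd1aKO against P3 Ctrl 0.0338% of all tested genes passed (5 genes), and in P3 Jmjd1bKO 0.0203% (3 genes). None of the members had an unadjusted p under 0.05 in limma in either comparison, against 1484 and 268 of all tested genes. Taf7l had 162 and 182.5 RPKM in P3 Jmjd1aKO and 197 and 204 RPKM in P3 Jmjd1bKO, against 191 and 182 RPKM in P3 Ctrl. Nxf2 had 144 and 147 RPKM in P3 Jmjd1aKO and 159 and 139 RPKM in P3 Jmjd1bKO, against 137 and 155 RPKM in P3 Ctrl. The members' median log2 change was -0.21 in P3 Jmjd1aKO, beside 0.00 over all tested genes, and -0.12 in P3 Jmjd1bKO, beside -0.01.

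Several members were lower in the libraries high in Sertoli markers, and others were not. In the second replicate of P3 Jmjd1aKO 5 members were lower than in the first (Tex11, Tex16, Usp26, Tktl1 and Pramel3), and in that of P3 Jmjd1bKO 6 were, the same 5 and Nxf2. Taf7l and Tex13 were higher in the second replicate of both groups, and Nxf2 in that of P3 Jmjd1aKO. Of all tested genes 54.7% were lower in the second replicate of P3 Jmjd1aKO and 53.9% in that of P3 Jmjd1bKO. Some of these shifts also occurred in groups without high Sertoli sums. Tex16 had 11.4 and 8.065 RPKM in replicates 1 and 2 of P3 DKO and 9.88 and 7.585 RPKM in those of P3 Ctrl. In P3 WT Tex16 went the other way (7.63 and 9.90 RPKM). Usp26 had 47.4 and 36.1 RPKM in replicates 1 and 2 of P3 DKO. Tex13 was higher in replicate 2 of P3 Ctrl and lower in that of P3 DKO (38.6 and 35.0 RPKM). Tex13 had 37.4 and 46.8 RPKM in replicates 1 and 2 of P3 Jmjd1aKO and 44.3 and 54.2 RPKM in those of P3 Jmjd1bKO, against 41.2 and 57.4 RPKM in P3 Ctrl. Tex11 had 47.2 and 37.4 RPKM in replicates 1 and 2 of P3 Jmjd1aKO and 53.9 and 38.9 RPKM in those of P3 Jmjd1bKO, against 50.04 and 53.7 RPKM in P3 Ctrl. Tktl1 had 52.9 and 44.0 RPKM in P3 Jmjd1aKO and 54.1 and 41.4 RPKM in P3 Jmjd1bKO, against 54.8 and 57.5 RPKM in P3 Ctrl. For Tex11, Tktl1, Tex16 and Pramel3 the second replicates of P3 Jmjd1aKO and P3 Jmjd1bKO were the lowest libraries of these 3 groups. Tex16 had 6.45 and 5.52 RPKM in them, against 9.88 and 7.585 RPKM in P3 Ctrl. Pramel3 had 1.26 and 1.55 RPKM in them, against 1.85 and 2.88 RPKM in P3 Ctrl. Without the second replicates, the P3 Jmjd1aKO change of Tex11 was -0.13 (-0.30 with them), that of Tktl1 -0.08 (-0.21 with them) and that of Usp26 -0.27 (-0.41 with them), while that of Taf7l was -0.20 (-0.11 with them) and that of Tex13 -0.37 (-0.21 with them). None of these passed in limma. Stromal markers summed to 70.6 and 73.4 RPKM and Leydig markers to 19.0 and 13.2 RPKM in the second replicates, against 11.4 to 13.4 and 1.08 to 2.37 in P3 Ctrl. The part of these cells in the members' values was not tested.

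Heterozygous Cre carriers were also compared with wild type. In P3 Ctrl against P3 WT 0.704% of all tested genes passed, 0.406% higher and 0.298% lower. None of the members passed in limma, and 3 (Nxf2, Tex13 and Usp26) had an unadjusted p under 0.05, as did 3923 of all tested genes. Usp26 had 52.0 and 51.7 RPKM in P3 Ctrl, against 79.3 and 77.4 RPKM in P3 WT (log2 change -0.59 ± 0.23, adjusted p = 0.15). Tex13 had 41.2 and 57.4 RPKM in P3 Ctrl, against 69.0 and 75.9 RPKM in P3 WT (-0.56 ± 0.18, adjusted p = 0.0989). Nxf2 had 137 and 155 RPKM in P3 Ctrl, against 166 and 180 RPKM in P3 WT (-0.24 ± 0.09, adjusted p = 0.144). A total of 5 members, these 3 with Taf7l and Tex11, did not overlap and were lower in P3 Ctrl, as were 29.5% of all tested genes. The members' median log2 change was -0.16, beside 0.02 over all tested genes. The Sertoli marker sum was 83.4 to 109.8 RPKM in P3 Ctrl and 145 to 184.5 in P3 WT, and the wild-type libraries had the lowest estimated depth, at 13.5 and 15.0 M fragments.

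Across the 14 libraries the members followed each other to different degrees. On the log2 scale Taf7l and Nxf2 had the highest Pearson r of any pair (0.94), and Usp26 and Tktl1 the lowest (0.35). The points share groups and depth, and the P7 DKO libraries carry much of the range, so these values are descriptions. The tested gene most like Taf7l was Fmr1nb (r = 0.99), which is also X-linked, and that most like Nxf2 was Mzt1 (0.98), a component of the microtubule-nucleating complex. Tex13 was most like Ppid (0.99), a cyclophilin, Tex11 most like Acbd3 (0.96), Pramel3 most like the deacetylase gene Sirt1 (0.96) and Usp26 most like Rlim (0.95), an X-linked ubiquitin ligase gene. Fmr1nb and Mzt1 rose in P7 DKO by 2.17 ± 0.12 and 1.40 ± 0.15 (adjusted p = 6.67e-06 and 0.000181).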

How the data were processed

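RNA of male germ cells was sequenced in 14 libraries, from total RNA (AllPrep kit) and with the TruSeq Stranded mRNA kit, per the labels' protocols. The authors deposited RPKM values for 24340 symbols per library. TopHat2 2.1.1, Cufflinks 2.1.1 and mm10 are named, per the submitters' processing notes, and the annotation is not given in the sources used here. The files analysed here hold no counts, so depth was estimated from the steps between RPKM values of genes with 1 transcript of 800 to 8000 nucleotides. Between 61.8 and 85.9% of these values per library lay within 0.2 of a whole fragment. Chance gives 40% for a depth fixed in advance. The depth was chosen for its fit to these same values, so part of that excess is built in.

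Values were used as log2(RPKM + 1), a pseudocount of 1, and a gene was tested where 2 or more libraries reached 1 RPKM (14772 genes). The tests were those of limma 3.58.1 in R 4.3.3, with eBayes and a trend and 1 coefficient per group over 14 libraries (7 residual and 2.76 prior degrees of freedom), two-sided, with Benjamini-Hochberg adjustment per comparison and a threshold of 0.05. Tested on simulated data for P7 DKO against P7 Ctrl over 14772 genes, the fit recovered 62% of 100 genes changed by a log2 of 1 and 93% of those changed by 2, with 11 false calls. The simulation drew independent noise and changed only these genes. In the real comparison 33.5% of tested genes were called, so its rates may differ. With 2 libraries per group, permuting samples cannot reach the threshold. Intervals are 95% intervals of the fit. Gene positions come from GENCODE M21, which placed 98.5% of symbols, and promoters from RefSeq.

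The members and the gene lists were chosen with earlier results of these data known. The genes named are the 8 members, their relatives Taf7, Nxf1 and Tkt, up to 3 genes past the threshold with the largest change from each list in each double-knockout comparison, or the 2 with the highest mean RPKM where none passed, and the gene most correlated with each member, which for 2 members is not reported here. Outside this rule stand the targeted genes Kdm3a and Kdm3b, the germ cell markers, the near-copy Gm5128, and Rps4x, Usp9x and Zfx of the X-linked list. In the closing section Mfsd1 and the genes between Taf7l and Pramel3 were chosen after their values were seen. Alternatives were a pseudocount of 0.1, no filter, quantile normalization, a replicate block, fits on the compared groups alone, fits without the second P3 Jmjd1aKO and P3 Jmjd1bKO libraries, and leaving out each library.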

Additional observations from a re-analysis of the deposited data

Results flagged for a closer look

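Taf7l, Nxf2 and Tex13 drew attention because the change between double knockout and control differed between the ages, by a test of that difference in limma. For Taf7l the P7 change exceeded the P3 change by 1.38 ± 0.147 on the log2 scale (adjusted p = 0.000707), with changes of 1.24 at P7 and -0.145 at P3. For Nxf2 the difference was 0.937 ± 0.132 (adjusted p = 0.00179), with 0.936 at P7 and -0.00175 at P3. For Tex13 it was 0.971 ± 0.249 (adjusted p = 0.0211), with 0.576 at P7 and -0.396 at P3. With quantile normalization the differences were 0.737 for Taf7l (adjusted p = 0.0073), 0.422 for Nxf2 (adjusted p = 0.0496) and 0.629 for Tex13 (adjusted p = 0.0961). In each case both P7 DKO libraries lay above both P7 Ctrl libraries, as for 38.1% of all tested genes. By the same test of the difference between the ages, 22.9% of all tested genes passed.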

How the results depend on the processing

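No member changed direction as a called value under any of the alternatives run. Over the fits that left out a library, the number of members called ranged from 2 to 4 in P7 DKO (4 with all libraries) and from 0 to 1 in P7 Ctrl against P3 Ctrl (2 with all). No label pairs the samples by replicate number, and the main fit did not use that number. Over 21 pairs of groups, same-numbered deviations had correlations from -0.13 to 0.581 (median 0.0675), of which 7 were over 0.1. Replicates of the same number thus shifted alike in some pairs of groups and not in others. With a replicate block, 1 member passed in P3 Ctrl against P3 WT, Tex13 (adjusted p = 0.0483), and 0 without it. Fitted on the compared groups alone, Usp26 was called in P7 Ctrl against P3 Ctrl (adjusted p = 0.0278) and lost in P7 DKO against P3 DKO (adjusted p = 0.0848). Without P7 DKO replicate 2, Usp26 was called in the difference between ages (0.82, adjusted p = 0.0393).

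The count of all genes called moved more. In P3 DKO (661) it was 365 with a pseudocount of 0.1, 1584 with no filter, 1140 with a replicate block, 1931 without the libraries high in Sertoli markers and 17 on the compared groups alone, and 10 to 150 without a library. In P3 Jmjd1aKO (5) these 5 alternatives gave 3, 12, 3, 10 and 9, and quantile normalization 9. In P3 Jmjd1bKO (3) no filter gave 7, the fit without the libraries high in Sertoli markers 7 and the compared groups alone 9, with 3 to 7 without a library. In P3 Ctrl against P3 WT (104) the pseudocount gave 183, quantile normalization 47, the replicate block 776, the fit without the libraries high in Sertoli markers 2199 and the compared groups alone 20, with 4 to 231 without a library. In P7 Ctrl against P3 Ctrl (3441) the fit without the libraries high in Sertoli markers gave 5206, with 486 to 2506 without a library. Leaving out a library gave 2619 to 4427 calls in P7 DKO (4954), and 1635 to 3316 in the difference between ages (3383). The cause of these shifts was not tested. A library left alone in its group is assumed to vary like the others. Depth limits Pramel3 most, which rests on 120 to 458 estimated fragments.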

Other observations

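Taf7l, Nxf2 and Pramel3 lie within 853 kb of each other on the X chromosome, an interval looked at after their values were seen. Of the 11 other tested genes between them, 5 were higher in P7 DKO than in P7 Ctrl and none lower (limma, adjusted p under 0.05). The 5 were Timm8a1 (log2 change 0.45 ± 0.16), a mitochondrial import chaperone gene, the ribosomal protein gene Rpl36a (0.75 ± 0.23), Armcx4 (1.09 ± 0.26), Armcx1 (0.72 ± 0.19) and Zmat1 (0.74 ± 0.15). Over all tested genes 17.4% were higher, and among the X-linked genes other than the members 33.0%. Hnrnph2 averaged 70.3 RPKM in P7 DKO, against 77.7 in P7 Ctrl, and Armcx2 averaged 20.3 RPKM in P7 DKO, against 20.4 in P7 Ctrl. Neither passed.

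Besides Nxf2, 2 genes had at least 5 copies of CACGTG in a RefSeq promoter window. Mfsd1, on chromosome 3, was higher in P7 DKO (log2 change 0.69, adjusted p = 0.000508), and the third gene was not among those tested.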
